A study of Mus musculus with 18 samples.

Results

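Microglia are macrophages that live in the brain. They were compared between the first postnatal week and adulthood in the corpus callosum, the large white matter tract that joins the hemispheres. The comparison rested on 6 of the series' 18 arrays, chosen by their titles: 3 of adult callosum microglia and 3 of callosum microglia from postnatal day 7 (P7), over all 22180 genes that had a probe set naming a single symbol. The arrays were Affymetrix expression arrays of total RNA from untreated C57Bl/6 mice in specific-pathogen-free housing, all described as healthy, and the cells were enriched on Percoll and sorted as CD45 and CD11b positive and Gr1 negative. The other groups, of 3 arrays each, were cortex microglia at the same ages, used below where the regions were compared, and callosum and cortex microglia at P3, of which the callosum arrays are given as levels only. All 18 arrays entered the fit that estimated the spread. Neither the adult age, the sex and number of animals behind an array, nor any pooling was given in the sources used here, so the p-values measure the spread between these samples, which may be technical.

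As background, microglia settle in the brain before birth, divide and spread through the tissue in the first postnatal weeks, and then renew slowly. Around birth the developing white matter holds clusters of large, amoeboid microglia that engulf cells and debris and express a set of genes including Itgax, Igf1, Gpnmb and Spp1. Adult microglia are ramified, survive on signals through the Csf1r receptor and carry a surface profile that includes Tmem119 and P2ry12, which depends on transforming growth factor beta (TGF-beta).

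All 6 arrays carried high levels of microglial markers and low levels of markers of neurons, oligodendrocytes, astrocytes and vessels. The mean log2 level over 21 homeostatic microglial genes lay between 9.64 and 9.86 on the P7 arrays and between 10.42 and 10.60 on the adult arrays. The corresponding means were 5.29 to 5.35 and 5.33 to 5.50 for 12 oligodendrocyte markers, and 5.27 to 5.56 and 5.31 to 5.38 for 11 astrocyte markers. For 16 neuron markers they were 5.31 to 5.45 at P7 and 5.21 to 5.32 in the adult, and for 15 endothelial and mural markers 5.38 to 5.41 and 5.33 to 5.50. The median of all genes tested was 5.76 at P7 and 5.80 in the adult, so these lists sat at or below the middle of the array, although levels of different probe sets are not strictly comparable. Markers of border-associated macrophages, which share the CD45 and CD11b gate, were higher, at 6.70 to 6.95 at P7 and 5.73 to 5.79 in the adult.

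**Figure D1:**
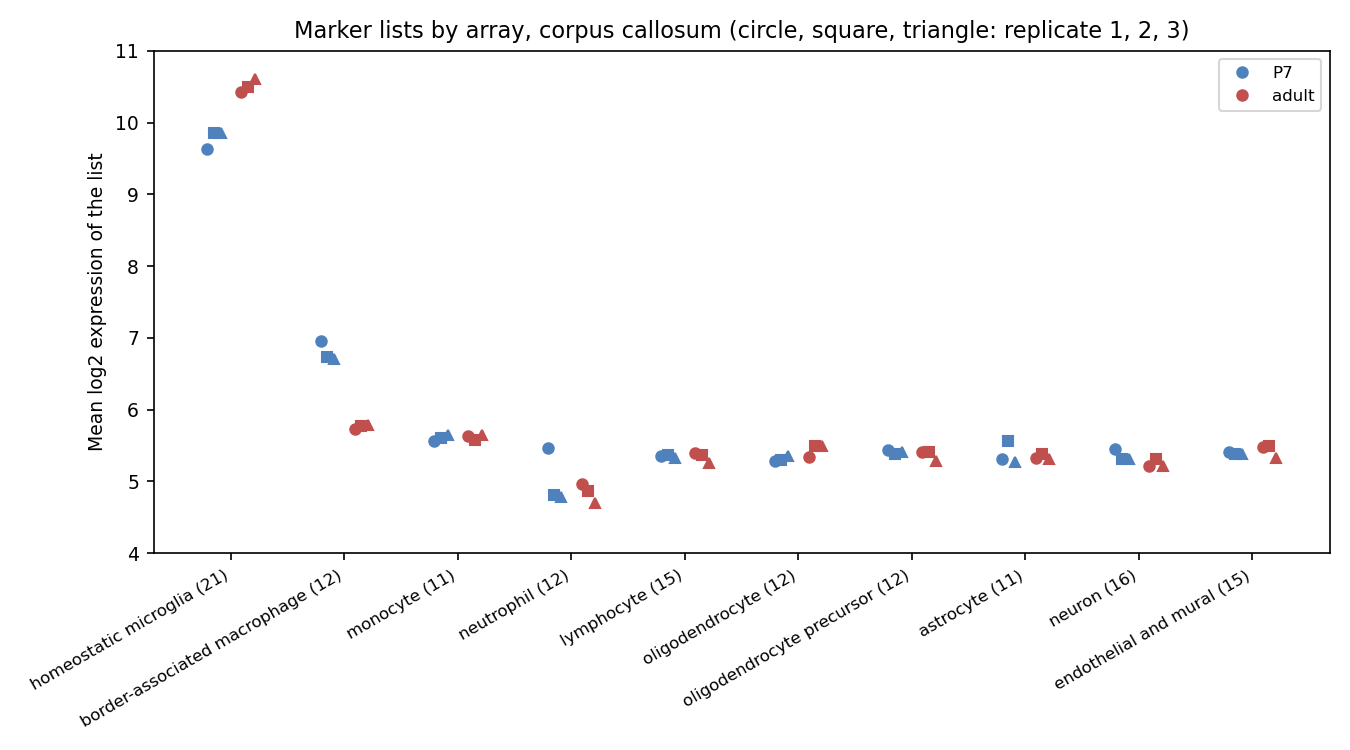
Mean log2 expression (y axis) of marker lists (x axis, number of genes measured in brackets) on each callosum array, P7 in blue and adult in red, with replicates 1, 2 and 3 as circle, square and triangle. The microglial list lies above 9 on all 6 arrays, and the neutrophil list is highest on P7 replicate 1 (5.46).

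P7 replicate 1 stood apart from replicates 2 and 3 in several measures that touch the results. Its mean over the mitosis list was 7.47 against 8.17 and 8.15, its mean over the axon tract list was 10.18 against 9.58 and 9.52, and its neutrophil marker mean was 5.46 against 4.80 and 4.79. It carried Xist at 10.91 together with the Y-linked Kdm5d at 6.64, whereas replicates 2 and 3 at P7 had Xist at 5.09 and 4.76, and adult replicate 1 had Xist at 11.45 with Kdm5d at 4.12. The part of these differences in the results was not tested beyond leaving the array out. Without it 2917 genes were called, 986 higher and 1931 lower, against 3822 with it, and the lists below had 43 of 43 mitosis genes, 38 of 43 replication genes and 21 of 26 axon tract genes lower, 11 of 21 homeostatic genes higher and 5 of 12 border-associated macrophage markers lower. The first principal component of the 6 arrays held 61.1% of the variance and separated the ages, and the second held 15.7% and set adult replicate 1 apart.

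Of the 22180 genes, 3822 (17.2%) differed between adult and P7 callosum microglia at an adjusted p under 0.05 (limma, fitted over all 18 arrays, two-sided, Benjamini-Hochberg over all genes): 1454 (6.56%) were higher in the adult and 2368 (10.7%) were lower. Differences are adult minus P7 on the log2 scale throughout. The larger changes were mostly falls: 646 called genes fell by at least 2-fold against 227 that rose, 128 against 16 passed 4-fold, and 42 against 3 passed 8-fold. The genes called lower had a median log2 level of 7.77 at P7 and 6.91 in the adult, and those called higher went from 6.38 to 7.11. The median difference of all genes was 0.05. The 3 adult and 3 P7 arrays did not overlap for 7683 genes (34.6%), and for 3759 of the 3822 called.

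**Figure D2:**
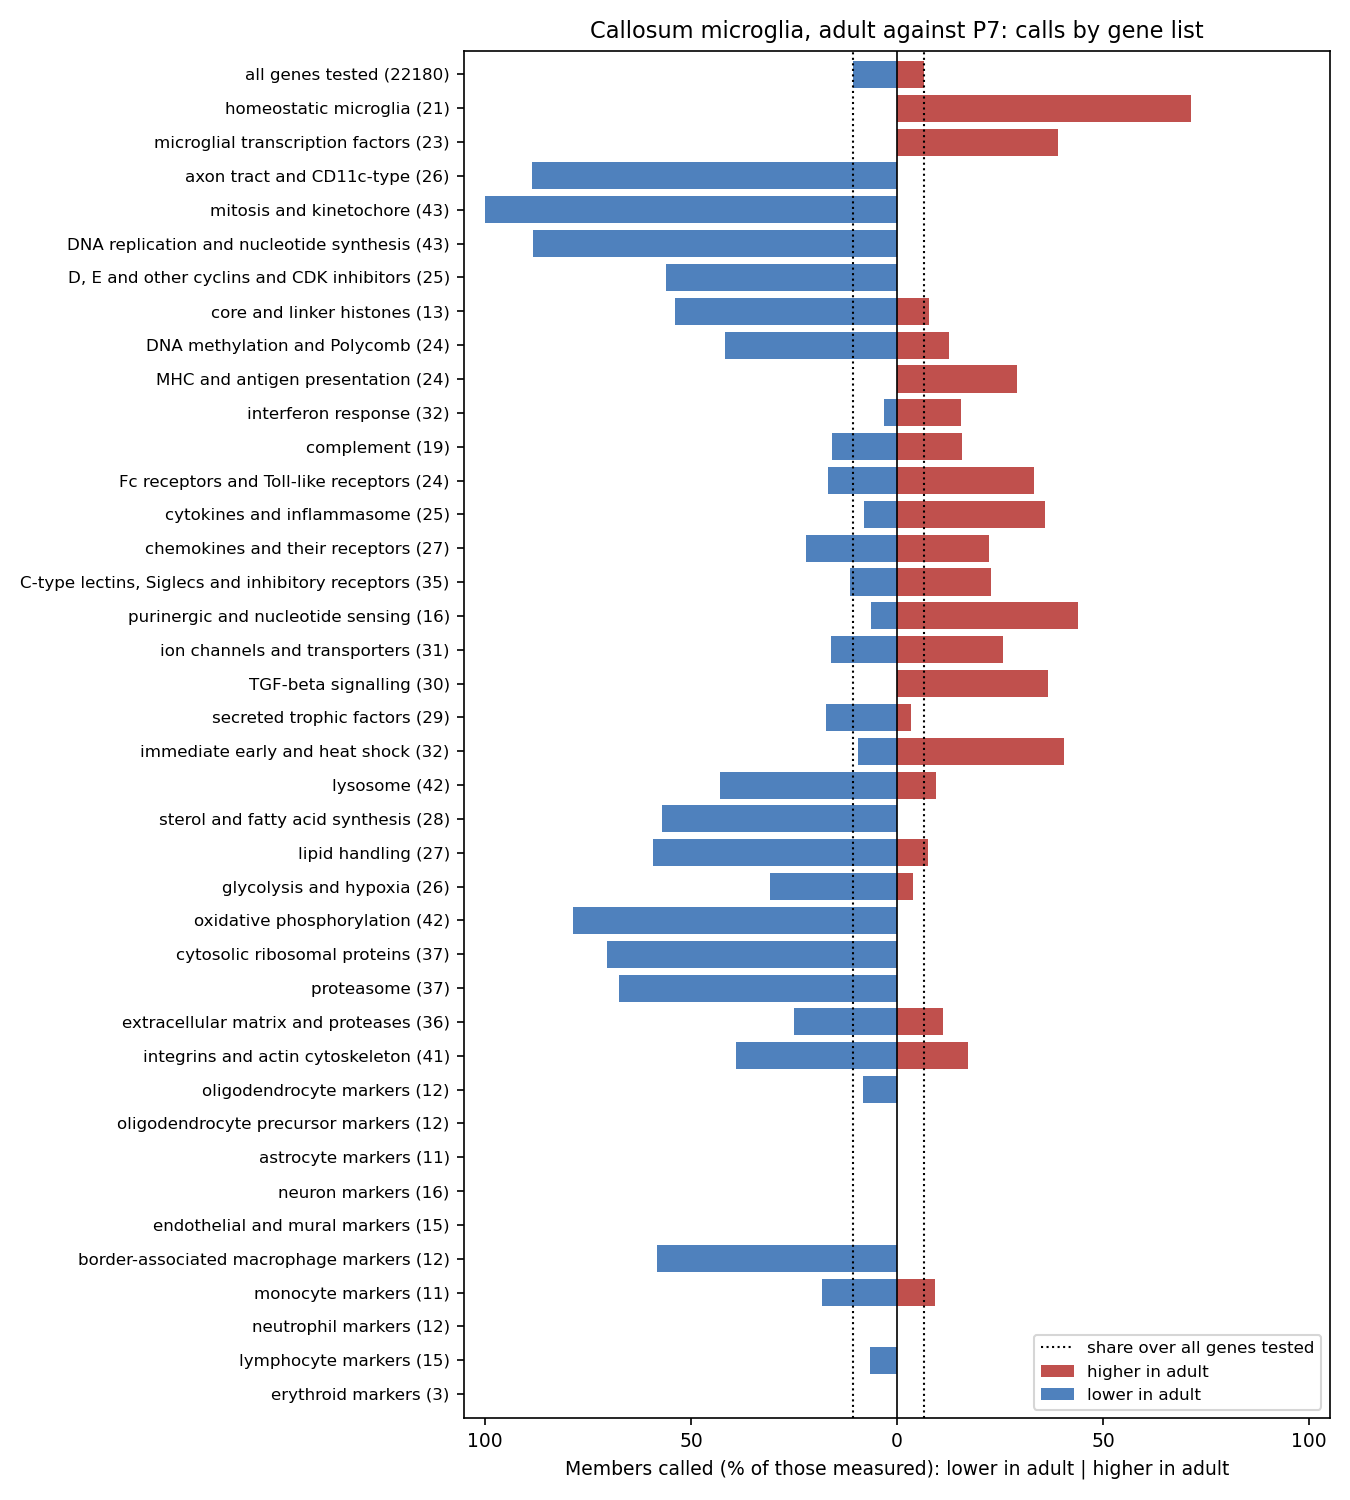
Share of the measured members of each gene list (number measured in brackets) called lower (blue, to the left) or higher (red, to the right) in adult than in P7 callosum microglia, in percent. The dotted lines mark the shares over all genes tested, 10.7% lower and 6.56% higher; the bars of the mitosis, replication and axon tract lists reach 100%, 88.4% and 88.5% lower.

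The genes of cell division fell together. All 43 measured genes of mitosis and the kinetochore, the machinery that condenses and separates chromosomes, were lower in the adult, each by at least 2-fold, with a median difference of -2.63 and a range from -1.06 for the kinesin Kif20a to -4.45 for Top2a. Of 43 genes of DNA replication and nucleotide synthesis 38 were lower and 0 higher (median -1.32), 26 of them by at least 2-fold. Tk1, Ung, Rpa2, Rfc5 and Orc1 were not called. The background is 10.7% of all genes lower and 6.56% higher, and these lists were chosen with results of these data known. In a bulk sample, fewer dividing cells and less of each transcript per cell cannot be told apart.

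Top2a, topoisomerase II alpha, which untangles DNA before chromosomes separate, had log2 levels of 8.44, 9.37 and 9.58 on the P7 arrays and 4.86, 4.57 and 4.62 on the adult arrays. It fell by 4.45 (SE 0.23, 21.8-fold, adjusted p = 3.96e-10, limma). Mki67, the proliferation marker Ki-67, was at 9.35, 10.13 and 10.23 at P7 and 5.43, 6.28 and 6.01 in the adult, a fall of 4.0 (SE 0.22, 16.0-fold). For both, every adult array lay below every P7 array, and P7 replicate 1 was the lowest of its group. The genes with the largest changes, with Rrm2, Igf1 and Selplg below, were picked among those without overlap. For them the lack of overlap therefore adds no support. Ube2c, the ubiquitin-conjugating enzyme of the anaphase-promoting complex, went from 8.63, 9.08 and 9.07 to 5.37, 4.36 and 4.80. Birc5 (survivin), a member of the chromosomal passenger complex, fell by 3.60. Shcbp1, a gene of dividing cells outside the list, fell by 3.73.

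Among the replication genes Rrm2, the small subunit of ribonucleotide reductase, which makes deoxynucleotides, changed most, from 9.02, 9.61 and 9.74 at P7 to 3.86, 4.07 and 4.79 in the adult (difference -5.22, SE 0.22, 37.2-fold, adjusted p = 8.82e-11, limma). Hells, a chromatin remodeller, fell by 3.15, and Mcm6, a subunit of the replicative helicase, by 2.69, from 8.16, 8.63 and 8.57 to 5.70, 5.61 and 5.97. The other helicase subunits Mcm4, Mcm3, Mcm2, Mcm5 and Mcm7 fell by 2.31, 1.58, 1.56, 1.52 and 0.97. Pcna, the sliding clamp, fell by 0.94. The groups did not overlap for Rrm2 or Mcm6.

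Regulators of the cycle changed less evenly. Of 25 cyclins, cyclin-dependent kinase inhibitors and E2F or DREAM complex genes 14 were lower (56.0%, against 10.7% of all genes) and 0 higher. The repressor E2f8 fell by 2.69 and Foxm1, a driver of mitotic genes, by 1.92. The kinase inhibitors Cdkn1a (p21) and Cdkn2c (p18) were also lower, by 2.15 and 1.95, with Cdkn1a at 8.91, 9.22 and 9.13 at P7 and 6.52, 7.18 and 7.10 in the adult. The D-type cyclins Ccnd1 (-0.52, adjusted p = 0.137, limma), Ccnd2 (-0.56) and Ccnd3 (0.02) did not pass the test, and neither did the pocket protein Rb1 (0.12) or the inhibitor Cdkn1b (0.22).

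The promoters of these genes are shown because the mitotic and replication lists moved together and each has a well-known promoter element: the cell cycle homology region (CHR, here TTTGAA or TTCGAA), bound by the MuvB complexes, CCAAT, bound by NF-Y, and E2F sites (here TTTCGCGC, TTTGGCGC or TTCCCGCC). Sequences are from RefSeq, build GRCm38.p6, the 120 bases before the annotated start, 5′ to 3′ in the direction of the gene, with matches to these motifs on either strand in capitals. Overlapping matches run together, as in the first match of Mcm6, and TTCGAA reads the same on both strands. Top2a, Ube2c and Mki67 are the 3 mitotic genes with the largest falls; Mcm6 was chosen from the replication genes after its matches were seen.
Top2a (chr11:99024190-99024309, minus strand): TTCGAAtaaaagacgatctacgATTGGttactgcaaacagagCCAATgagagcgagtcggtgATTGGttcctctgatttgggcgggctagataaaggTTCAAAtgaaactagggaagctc
Ube2c (chr2:164769809-164769928, plus strand): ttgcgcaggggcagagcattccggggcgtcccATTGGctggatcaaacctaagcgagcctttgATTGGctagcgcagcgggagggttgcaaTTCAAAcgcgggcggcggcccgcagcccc
Mki67 (chr7:135716380-135716499, minus strand): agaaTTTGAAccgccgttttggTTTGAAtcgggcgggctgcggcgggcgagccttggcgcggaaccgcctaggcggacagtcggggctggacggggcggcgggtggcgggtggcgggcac
Mcm6 (chr1:128359706-128359825, minus strand): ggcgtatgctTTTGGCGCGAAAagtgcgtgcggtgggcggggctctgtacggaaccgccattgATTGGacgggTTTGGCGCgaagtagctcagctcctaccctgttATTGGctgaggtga

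Top2a held 2 CHR and 3 CCAAT matches in these 120 bases, Ube2c 1 and 2, and Mki67 2 CHR matches and no CCAAT. Mcm6 held 3 E2F and 2 CCAAT matches and no CHR. For Rrm2 and Hells, the replication genes with larger falls, the same window held 1 CCAAT match and no match, respectively, which says only that these letters were not in that window.

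Over the full windows, from 250 bases before to 50 after the start, CHR matches lay in 32 of 37 windows (86.5%) of the mitosis list, against 5 of 41 (12.2%) of the replication list and 19.2% of all 32851 windows. CCAAT lay in 75.7% of the mitotic, 63.4% of the replication and 37.4% of all windows. An E2F match lay in 39.0% of the replication windows, 8.11% of the mitotic ones and 2.96% of all. RefSeq windows were found for 35 of 43 mitotic and 36 of 43 replication genes, and some genes have several starts. Over all genes called, the CHR share was 16.1% for those lower and 16.4% for those higher in the adult, and the E2F share 8.37% and 2.85%. A match is a run of letters and was not tested as a site.

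**Figure D3:**
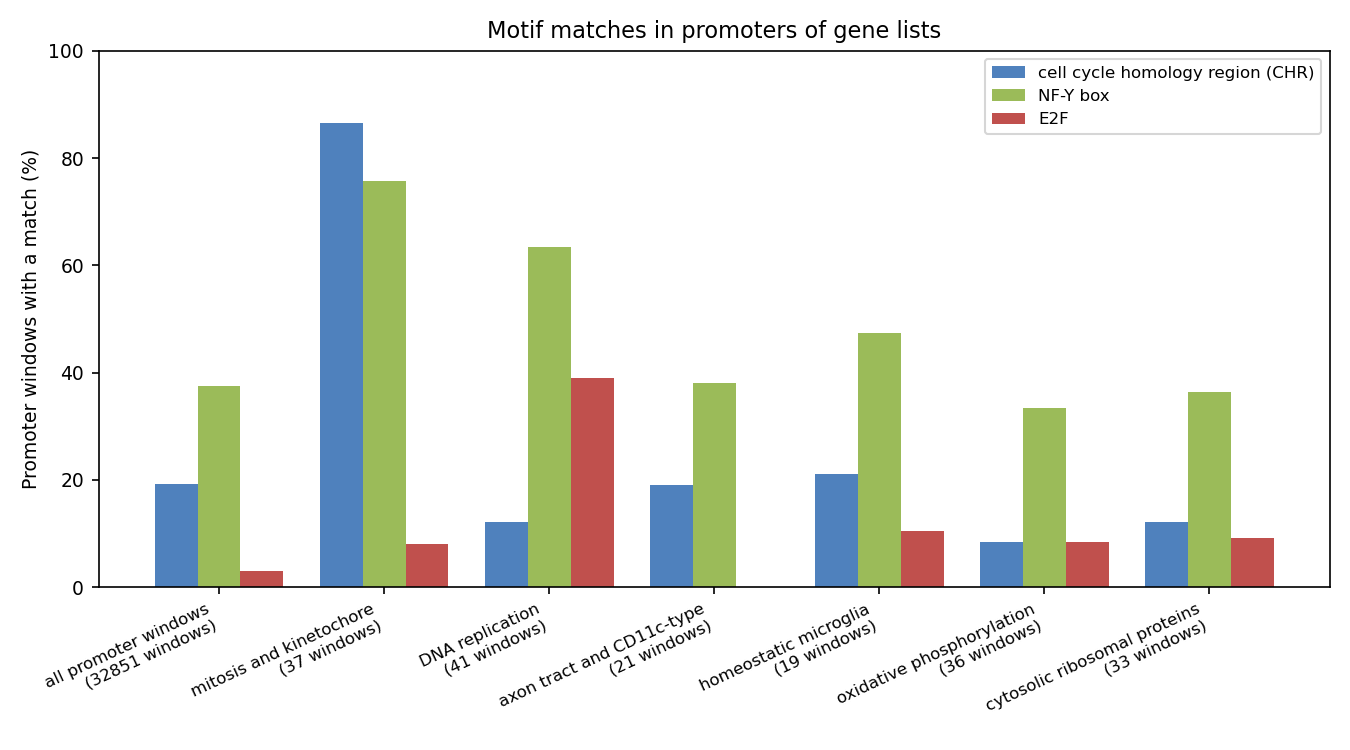
Share of RefSeq promoter windows (y axis, percent) that hold a match to the CHR (blue), the NF-Y box (green) or an E2F motif (red), for all windows and for 6 gene lists (x axis, number of windows). The CHR bar is tallest for the mitosis list (86.5%) and the E2F bar for the replication list (39.0%).

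Chromatin genes changed in both directions, mostly downward. Of 24 genes of DNA methylation, Polycomb and nuclear architecture 10 were lower and 3 higher (41.7% and 12.5%, against 10.7% and 6.56% of all genes). The lower members included the lamin Lmnb1 (-2.29), Uhrf1 (-2.09), which recruits DNA methylation to newly copied DNA, and Dnmt1 (-1.29), the maintenance methyltransferase. The Polycomb methyltransferases went opposite ways: Ezh2 was at 7.91, 8.44 and 8.51 at P7 and 6.42, 6.43 and 6.34 in the adult, and Ezh1 at 7.18, 7.01 and 7.09 and then 7.73, 7.62 and 7.70. Ezh2 fell by 1.89 (adjusted p = 1.45e-07, limma) and Ezh1 rose by 0.59 (adjusted p = 0.00343). The count of 3 higher members became 1 without P7 replicate 3 and 1 without adult replicate 3.

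Of 13 measured histone genes 7 were lower and 1, H4c1, higher (53.8% and 7.69%, against 10.7% and 6.56% of all genes). H1f5, a linker histone of the replication-dependent cluster, had the largest fall of any gene tested, from 9.74, 10.84 and 10.95 to 3.81, 3.83 and 3.53 (difference -6.78, SE 0.40, 110.2-fold, adjusted p = 1.92e-09, limma). H2ac15 fell by 4.04. Histone genes of this kind are near copies of each other, so signal may be shared between their probe sets. H4c1 rose by 1.22 (adjusted p = 0.0408, limma), but its adjusted p was 0.236 without P7 replicate 1, 0.0675 without P7 replicate 3, and 0.103 and 0.129 without adult replicates 2 and 3. It was 0.0649 with only the 6 callosum arrays, 0.0718 with a trended and robust variance prior and 0.0632 after a further quantile normalization.

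The set of genes that marks amoeboid microglia of developing axon tracts and the CD11c-positive state was nearly all lower in the adult. Of 26 measured genes 23 were lower (88.5%, against 10.7% of all genes), 19 of them by at least 2-fold, and 0 higher. The median difference was -2.06. Axl (-0.33), Tyrobp (-0.13) and Trem2 (-0.04) did not pass the test. The mean level of the list was 9.37 to 9.56 on the P3 arrays, 9.52 to 10.18 at P7 and 7.54 to 7.62 in the adult. P3 arrays carry another label prefix, so age and array set cannot be told apart for them.

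Itgax, the integrin alpha chain CD11c, was at 9.80, 8.30 and 8.43 at P7 and 5.62, 5.71 and 5.66 in the adult, so that it fell by 3.18 (SE 0.28, 9.06-fold, adjusted p = 1.88e-07, limma). Igf1, insulin-like growth factor 1, was at 10.49, 9.54 and 9.49 and then 6.20, 6.01 and 5.69, a fall of 3.88 (SE 0.27, 14.7-fold, adjusted p = 1.21e-08). The 3 adult values of each gene were close together, the groups did not overlap, and P7 replicate 1 was the highest. Gpnmb, a transmembrane glycoprotein of phagocytic macrophages, went from 10.87, 9.74 and 9.54 to 5.63, 5.6 and 5.66. Atp6v0d2, a subunit of the proton pump that acidifies lysosomes, went from 9.68, 8.69 and 8.49 to 3.78, 3.65 and 4.34 (difference -5.03, SE 0.46, 32.7-fold). Clec7a (dectin-1), a receptor for beta-glucans, fell by 1.98, from 9.99, 9.17 and 9.01 to 7.41, 7.60 and 7.23.

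Lipid genes of the set fell as well. Fabp5, a fatty acid carrier, was at 11.94, 11.29 and 11.50 at P7 and 6.44, 7.18 and 6.58 in the adult, a fall of 4.84 (SE 0.26, 28.7-fold, adjusted p = 6.87e-10, limma). Lpl, lipoprotein lipase, went from 11.29, 10.85 and 10.94 to 7.88, 7.88 and 7.41, and the apolipoproteins Apoc1 and Apoe fell by 3.40 and 1.29. Of 27 genes of lipid handling 16 were lower and 2 higher (59.3% and 7.41%, against 10.7% and 6.56% of all genes). The lower included the scavenger receptor Msr1 (-1.91), the droplet coat protein Plin2 (-2.15) and the cholesterol exporter Abca1 (-0.59). Of 28 genes of sterol and fatty acid synthesis 16 were lower (57.1%) and 0 higher. The falls were led by Sqle (-1.37), Cyp51 (-1.25) and Hmgcs1 (-1.21), with the regulator Srebf2 at -0.58. Cyp27a1, which oxidises cholesterol, was 1 of the 2 lipid handling genes that rose (0.74), from 7.03, 7.08 and 6.67 to 7.69, 7.61 and 7.69. The other was Acsl4 (0.36), and the 2 became 1 without P7 replicate 1, 2 or 3 or adult replicate 1 or 3, and with only the 6 callosum arrays.

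Some other secreted factors of the P7 cells fell too. Csf1, a ligand of Csf1r, went from 10.47, 9.13 and 9.13 to 6.99, 7.12 and 6.78 (-2.61, adjusted p = 2.18e-06, limma), and Gas6, a ligand that bridges apoptotic cells to the Axl and Mertk receptors, from 10.84, 10.64 and 10.61 to 8.50, 8.22 and 8.58 (-2.27). Of 29 secreted trophic factors 5 were lower (Igf1, Csf1, Gas6, Grn and Vegfb) and 1, Pdgfb (0.87), was higher. These shares, 17.2% and 3.45%, stand beside 10.7% and 6.56% of all genes, and the list median was 0.07. Tnfsf18, the ligand of the GITR receptor, fell by 3.73. The other 23 trophic factors did not pass the test, among them Bdnf (-0.05), Vegfa (-0.29) and Hgf (0.39).

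**Figure D4:**
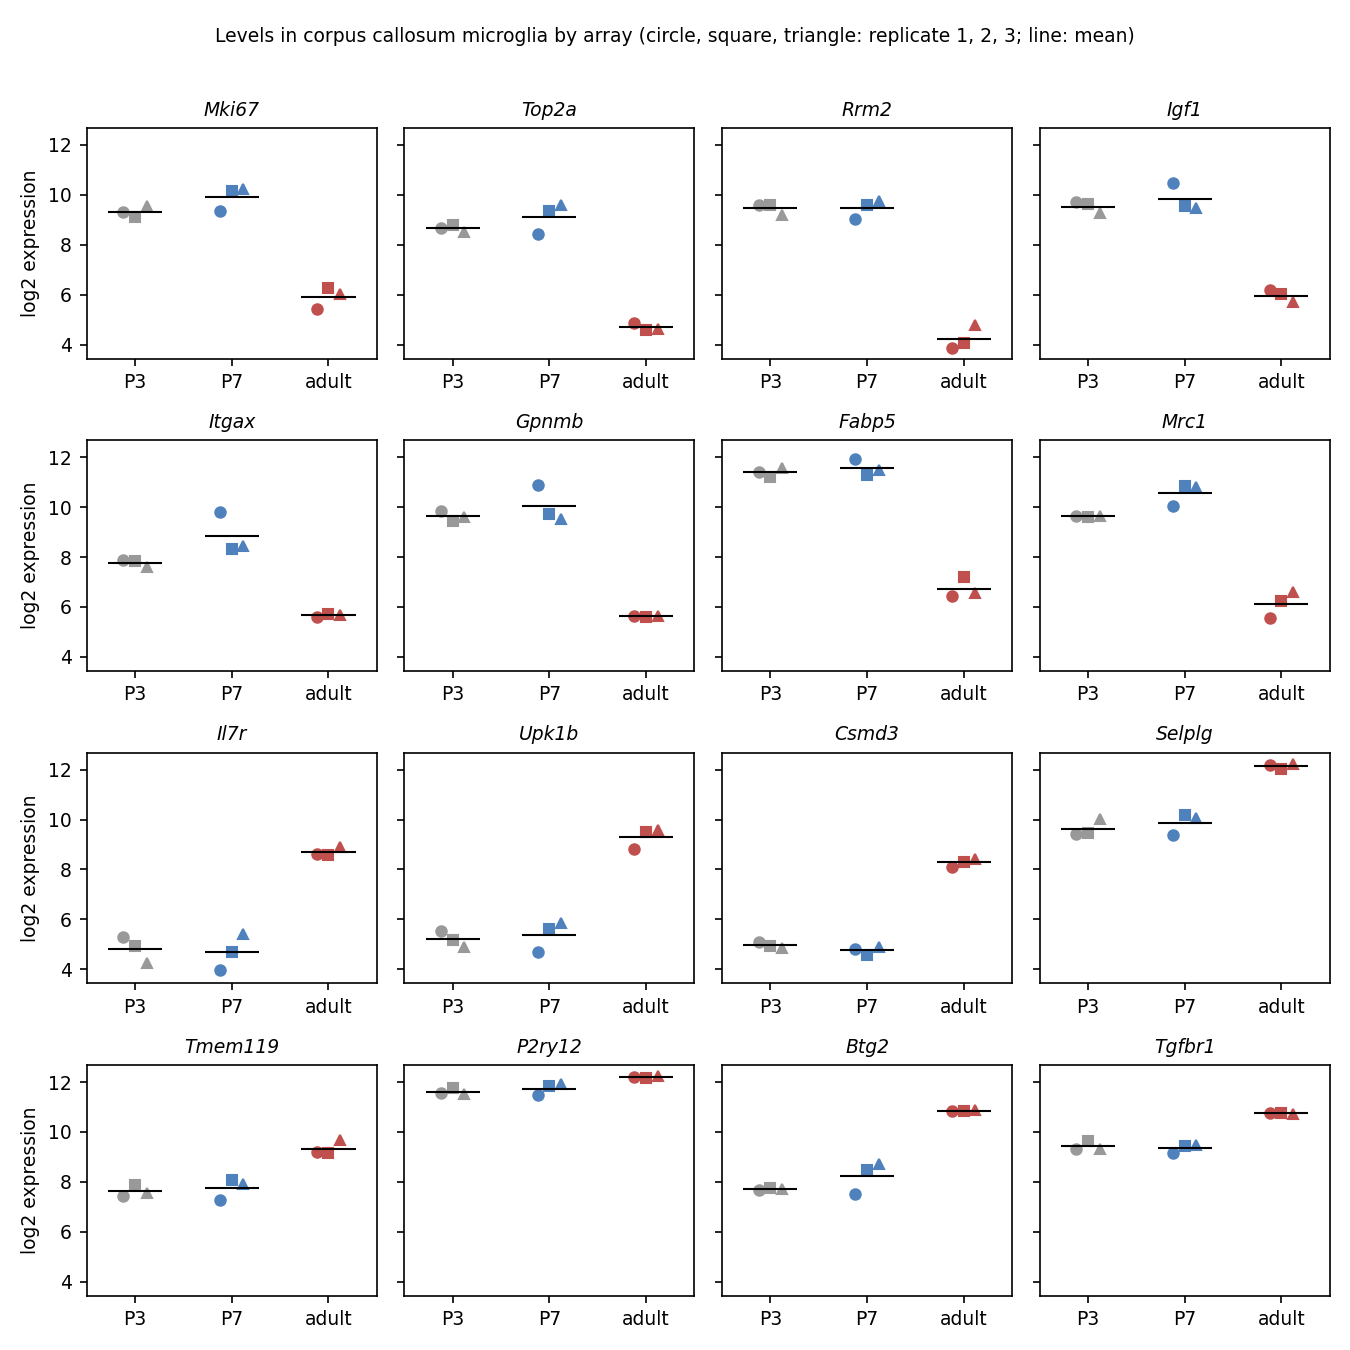
Log2 expression (y axis, shared by all panels) of 16 genes on the callosum arrays at P3 (grey), P7 (blue) and adult (red), with replicates 1, 2 and 3 as circle, square and triangle and a line at the mean. In each panel the adult arrays lie wholly below (first 8 genes) or above (last 8 genes) the P7 arrays.

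Homeostatic microglial genes rose. Of 21 measured, 15 were higher and 0 lower (71.4%, against 6.56% of all genes), with a median difference of 0.66. Selplg, the P-selectin ligand PSGL-1, went from 9.37, 10.16 and 10.07 to 12.19, 12.02 and 12.23, a rise of 2.28 (SE 0.19, 4.85-fold, adjusted p = 8.84e-08, limma). Tmem119, a microglia-specific surface protein, went from 7.29, 8.09 and 7.92 to 9.18, 9.14 and 9.66, a rise of 1.56 (SE 0.22, adjusted p = 5.77e-05). The groups did not overlap for either gene. Adgrg1 (GPR56), an adhesion receptor, rose by 1.53, and the fructose transporter Slc2a5 by 1.37.

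The receptors already high at P7 rose by less. P2ry12, the ADP receptor that steers microglial processes, was at 11.48, 11.82 and 11.91 and then 12.20, 12.16 and 12.26, a difference of 0.47 (adjusted p = 0.00842, limma). Its adjusted p was 0.0638 without P7 replicate 1 and 0.0527 with only the 6 callosum arrays. Cx3cr1, the fractalkine receptor, rose by 0.41 (adjusted p = 0.0138), with 0.0545 without P7 replicate 1 and 0.0616 without adult replicate 3. Csf1r rose by 0.47 (adjusted p = 0.0255) and Gpr34 by 0.66 (adjusted p = 0.0265). For Csf1r the adjusted p was 0.101 and 0.0625 without P7 replicates 1 and 2, and 0.0666 and 0.0716 without adult replicates 1 and 3. For Gpr34 it was 0.126 and 0.0554 without P7 replicates 1 and 2, and 0.0979 and 0.0572 without adult replicates 2 and 3. Sall1, the transcription factor that holds microglial identity, differed by 0.39 (adjusted p = 0.0812) and Trem2 by -0.04, and neither passed.

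The TGF-beta list had 11 of 30 genes higher (36.7%, against 6.56% of all genes) and 0 lower. The type I receptor Tgfbr1 was at 9.17, 9.43 and 9.46 at P7 and 10.78, 10.78 and 10.72 in the adult, a rise of 1.40 (SE 0.12, 2.65-fold, adjusted p = 1.91e-07, limma). Itgb5 and Itgav, which pair into an integrin that can release TGF-beta from its latent form, rose by 1.14 and 0.60, and the co-receptor Eng by 1.17. The signal transducer Smad3 (0.77) and the inhibitors Smad7 (1.05), Ski (0.57) and Skil (1.04) rose as well. The ligand Tgfb1 (-0.02), the receptor Tgfbr2 (-0.01) and Smad4 (0.19) did not pass the test. Of 23 microglial transcription factors 9 were higher (39.1%, against 6.56% of all genes) and 0 lower. The largest rise in this list was that of Fos (1.74), which is described with the immediate early genes below. Mef2a (1.05) and Irf8 (0.53) also rose, while Spi1 (0.08), Mef2c (0.12) and Runx1 (0.27) did not pass.

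The genes with the largest rises lay mostly outside these lists. Il7r, the interleukin-7 receptor alpha chain, went from 3.97, 4.71 and 5.40 to 8.61, 8.59 and 8.88 (4.0, SE 0.30, 16.1-fold, adjusted p = 3.83e-08, limma). Upk1b, a tetraspanin named for the bladder lining, went from 4.68, 5.62 and 5.85 to 8.82, 9.52 and 9.56 (3.92, SE 0.25), and Csmd3, a large membrane protein with complement-control domains, from 4.82, 4.57 and 4.87 to 8.11, 8.30 and 8.44 (3.53, SE 0.16). These P7 values lay below 5.76, the median of all genes, except that of Upk1b replicate 3, while every adult value lay above 8. Rgs1, a brake on G protein signals, rose by 2.87, and Kcnrg, Neurl3, Capn3, Cfap74 and Ptprm by 2.55, 2.32, 2.23, 2.22 and 1.92. Tnfsf13b (BAFF), a B-cell survival factor, rose by 1.97, from 5.15, 5.27 and 5.20 to 7.49, 6.80 and 7.24.

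Immediate early and heat shock genes, which switch on quickly after a stimulus or stress, were higher in 13 of 32 and lower in 3. These shares were 40.6% and 9.38%, against 6.56% and 10.7% of all genes. Btg2, an antiproliferative gene, was at 7.50, 8.47 and 8.71 and then 10.85, 10.83 and 10.87 (2.62, SE 0.27, adjusted p = 1.35e-06, limma). Fos and Jun, the AP-1 partners, rose by 1.74 and 1.72. The inducible chaperones Hspa1a and Hspa1b were at 6.26, 8.37 and 8.11 and at 6.41, 7.59 and 7.24 in the adult, with replicate 1 lowest for both, against at most 5.30 and 5.38 at P7. Egr1 rose by 1.42 (adjusted p = 0.00821, with 0.0599 without P7 replicate 1), whereas Egr2 fell by 1.22 and the mitochondrial chaperones Hspd1 and Hspe1 fell by 1.21 and 0.64.

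The immune sensing genes that were called were mostly higher. Of 24 genes of antigen presentation 7 were higher and 0 lower (29.2% and 0%, against 6.56% and 10.7% of all genes). The rises were led by the peptide loading chaperones of the class II pathway H2-DMb2 (1.42) and H2-DMa (1.07), the latter from 7.84, 8.06 and 8.02 to 9.10, 8.82 and 9.21. The class II chain H2-Aa (0.14) and B2m (0.06) did not pass. Of 24 Fc and Toll-like receptor genes 8 were higher and 4 lower (33.3% and 16.7%, against 6.56% and 10.7% of all genes). Tlr3, a sensor of double-stranded RNA, rose by 1.78, from 7.74, 8.14 and 8.25 to 9.73, 9.82 and 9.92, and Tlr12 and Cd14 rose by 1.13 and 0.97. Tlr1 fell by 0.78 and Fcgrt, the neonatal Fc receptor, by 1.09. The 4 lower calls became 2 without P7 replicate 1 or 2 or adult replicate 1 or 2.

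Of 25 cytokine and inflammasome genes 9 were higher and 2 lower (36.0% and 8.0%, against 6.56% and 10.7% of all genes). Il1a rose by 1.54, from 8.44, 8.62 and 8.60 to 10.15, 10.05 and 10.07 (adjusted p = 1.44e-05, limma), and the inflammasome sensor Nlrp1b by 1.33. Il6 went from 4.13, 4.76 and 3.94 to 5.56, 5.55 and 6.17, from below the median of all genes at P7 to near it in the adult. The lower calls, of the antagonist Il1rn (-0.68) and the adaptor Pycard (-0.46), became 0 without P7 replicate 1. They became 1 without P7 replicate 3 or adult replicate 1 or 3, and with only the 6 callosum arrays, where Il1rn lost its call. Tnf (-0.30) did not pass.

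Chemokine genes divided. Ccl3 fell by 1.58, from 11.78, 11.12 and 11.17 to 10.24, 9.79 and 9.30, and Ccl6 and Ccl9 by 2.0 and 1.21, while the chemerin receptors Cmklr1 and Ccrl2 rose by 1.49 and 1.24. Of 27 listed genes 6 were higher and 6 lower, each 22.2% of the list, against 6.56% and 10.7% of all genes. The 6 higher became 3 without P7 replicate 2 or 3 or adult replicate 3. Of 35 lectin, Siglec and inhibitory receptor genes 8 were higher and 4 lower (22.9% and 11.4%, against 6.56% and 10.7% of all genes). Vsir (VISTA), an inhibitory receptor, rose by 1.46 and Siglece by 1.13, and Cd200r4 and Lilrb4a fell by 2.43 and 1.61. Of 19 complement genes 3 were higher and 3 lower, with C3ar1 at -0.65 and C2 at -1.34, and the receptor chains Itgam and Itgb2 rose by 0.84 and 0.86. Each count is 15.8% of the list, against 6.56% higher and 10.7% lower over all genes. C1qa (0.38), C1qb (0.11) and C1qc (0.07) did not pass.

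Of 16 purinergic genes 7 were higher and 1 lower (43.8% and 6.25%, against 6.56% and 10.7% of all genes). P2ry13 rose by 0.93, from 10.56, 10.95 and 10.79 to 11.43, 11.71 and 11.95, and the ATP-degrading Entpd1 (CD39) by 0.79, whereas P2rx1 fell by 0.61. The 7 higher became 3 without P7 replicate 1 and 4 without adult replicate 3. Of 31 ion channels and transporters 8 were higher and 5 lower (25.8% and 16.1%, against 6.56% and 10.7% of all genes). Among the higher were Trpm2 (1.24), Kcnma1 (1.05) and the leucine-rich repeat membrane protein Lrrc3 (1.53), and among the lower Clic4 (-1.32). Of 32 interferon-response genes 5 were higher (15.6%, against 6.56% of all genes) and 1, Bst2 (-0.69), was lower (3.12%, against 10.7%). The 5 became 3 without P7 replicate 1, and Ifit3 (0.51, adjusted p = 0.116, limma) and Irf7 (0.16) did not pass. Outside the list, 2 genes named for interferon changed more. Ifitm2 fell by 3.72 (adjusted p = 4.71e-08, limma) and Ifi209 rose by 2.01 (adjusted p = 0.000221).

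Genes of energy and protein turnover were lower. Of 42 subunits of oxidative phosphorylation 33 were lower and 0 higher (median -0.78), and all 42 differences were negative. Ndufa1, of complex I, went from 10.57, 10.28 and 10.22 to 8.58, 8.97 and 8.89, a fall of 1.54 (SE 0.13, 2.91-fold, adjusted p = 1.17e-07, limma), and Cox4i1, of cytochrome oxidase, fell by 1.32. Of 37 cytosolic ribosomal protein genes 26 were lower and 0 higher (median -0.65), led by Rpl9 (-1.66) and Rpl32 (-1.62). Of 37 proteasome genes 25 were lower and 0 higher (median -0.54). The shares called lower in the oxidative phosphorylation, ribosomal and proteasome lists were 78.6%, 70.3% and 67.6%, against 10.7% of all genes. Ribosomal protein genes have many near-identical pseudogene copies, so their probe sets may share signal.

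Of 26 glycolysis and hypoxia genes 8 were lower and 1, Hk1, higher (30.8% and 3.85%, against 10.7% and 6.56% of all genes). Hk1 rose by 0.45 (adjusted p = 0.0271, limma), with 0.0511 and 0.116 without P7 replicates 1 and 3, 0.122 and 0.106 without adult replicates 2 and 3, and 0.093 with only the 6 callosum arrays. Pgk1, phosphoglycerate kinase, went from 10.11, 9.58 and 9.54 to 7.56, 7.37 and 7.44 (-2.28, adjusted p = 2.42e-08, limma), and Tpi1 and Pkm fell by 2.05 and 1.64. Of 42 lysosomal genes 18 were lower and 4 higher (42.9% and 9.52%, against 10.7% and 6.56% of all genes). The 4 became 2 with only the 6 callosum arrays and after a further quantile normalization. The protease Ctsb went from 12.12, 12.09 and 12.01 to 10.66, 10.62 and 10.90 (-1.35), and Gusb and Gla fell by 1.38 and 1.69, whereas the cathepsins Ctsh and Ctss rose by 1.45 and 0.63. Ctsd (0.03) and Lamp2 (-0.13) did not pass.

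Of 41 integrin and actin cytoskeleton genes 16 were lower and 7 higher (39.0% and 17.1%, against 10.7% and 6.56% of all genes). Stmn1 and Tubb5, which shape microtubules, fell by 2.34 and 1.62, and Actb by 0.69, while Itgb5 rose by 1.14. Of 36 matrix and protease genes 9 were lower and 4 higher. Hpse, heparanase, which cuts heparan sulfate, went from 9.01, 8.35 and 8.18 to 5.01, 4.86 and 4.90 (-3.59, SE 0.20, 12.01-fold, adjusted p = 1.38e-09, limma). Lgals1 fell by 3.25 and Sdc4 by 1.60, and Mmp14, a membrane-bound protease, rose by 1.03. The 9 lower became 5 without P7 replicate 1 or adult replicate 1, and the 4 higher became 2 without P7 replicate 1.

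Markers of other macrophages and blood cells moved for some genes. Of 12 border-associated macrophage markers 7 were lower in the adult (58.3%, against 10.7% of all genes) and 0 higher. Mrc1, the mannose receptor CD206, went from 10.06, 10.85 and 10.81 to 5.56, 6.24 and 6.61 (-4.44, SE 0.27, 21.7-fold, adjusted p = 3.07e-09, limma), and Folr2 and Pf4 fell by 2.66 and 1.91. Cd163 (0.06), Lyve1 (-0.05), Siglec1 (-0.24), F13a1 (-0.27) and Clec10a (0.05) did not pass. The part of such cells in the falls of Mrc1, Folr2 and Pf4 was not tested. Of 11 monocyte markers Lyz2 (-1.22) and Itga4 (-0.74) were lower (18.2%, against 10.7% of all genes) and Ccr2 (0.45) was higher (9.09%, against 6.56%). The adjusted p of Ccr2 was 0.0496 (limma), and 0.121, 0.103 and 0.104 without P7 replicates 1, 2 and 3. It was 0.135 and 0.21 without adult replicates 1 and 3, and 0.103 with only the 6 callosum arrays. With only the 12 P7 and adult arrays it was 0.0648, after a further quantile normalization 0.177, and with sex genes as a covariate 0.0557. Cd79b (-0.98) was the 1 of 15 lymphocyte markers called (6.67%), and Mbp (-0.33, adjusted p = 0.0439, limma) the 1 of 12 oligodendrocyte markers (8.33%). Over all genes 10.7% were lower. For Mbp the adjusted p was 0.156 and 0.115 without P7 replicates 1 and 2, and 0.139, 0.0748 and 0.0624 without adult replicates 1, 2 and 3. It was 0.0989 with only the 6 callosum arrays, 0.0546 with only the 12 P7 and adult arrays and 0.0527 with the replicate block. None of 12 neutrophil, 12 oligodendrocyte precursor, 11 astrocyte, 16 neuron, 15 endothelial and mural and 3 erythroid markers was called in this limma fit.

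The same ages were set side by side in cortex microglia to see which of these changes were larger in the callosum. In cortex 2264 of 22180 genes (10.2%) were called, 899 higher (4.05%) and 1365 lower (6.15%), and the 899 became 561 without cortex P7 replicate 3 and 592 without cortex adult replicate 3. Of the genes called higher in the callosum 598 were also called higher in cortex, 41.1% of the callosal and 66.5% of the cortical list. For genes called lower the overlap was 1169, 49.4% and 85.6%, and 3 genes were called in opposite directions. Across genes, which are not independent replicates, the differences of the regions had a Pearson r of 0.78 and a Spearman rho of 0.59. All 43 mitosis genes were called lower in cortex too, with a median of -2.87, and Top2a, Rrm2 and Mki67 fell there by 4.99, 5.31 and 4.61. Il7r, Upk1b and Csmd3 rose in cortex by 3.84, 4.32 and 3.59.

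The test of the difference itself, the callosal minus the cortical age change, called 45 genes (0.203%), and 1628 had an unadjusted p under 0.05. For 44 the callosal change was the more negative, and 43 of these were called lower in the callosum, while in cortex 14 were called lower, 3 higher and 27 not called. The count was 12 to 47 when 1 of the 12 arrays was left out: 20 without callosal P7 replicate 1, 18 and 17 without callosal adult replicates 1 and 2, 21, 12 and 13 without cortical P7 replicates 1, 2 and 3, and 25, 14 and 13 without cortical adult replicates 1, 2 and 3. In all, 12 of the 45 kept an adjusted p under 0.05 under every alternative run for them, Anxa5, Aplp2, Atp1b3, Atp6v0d2, Ccl6, Ccl9, Chchd10, Gpnmb, Hpse, Itgax, Slc37a2 and Smim20.

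**Figure D5:**
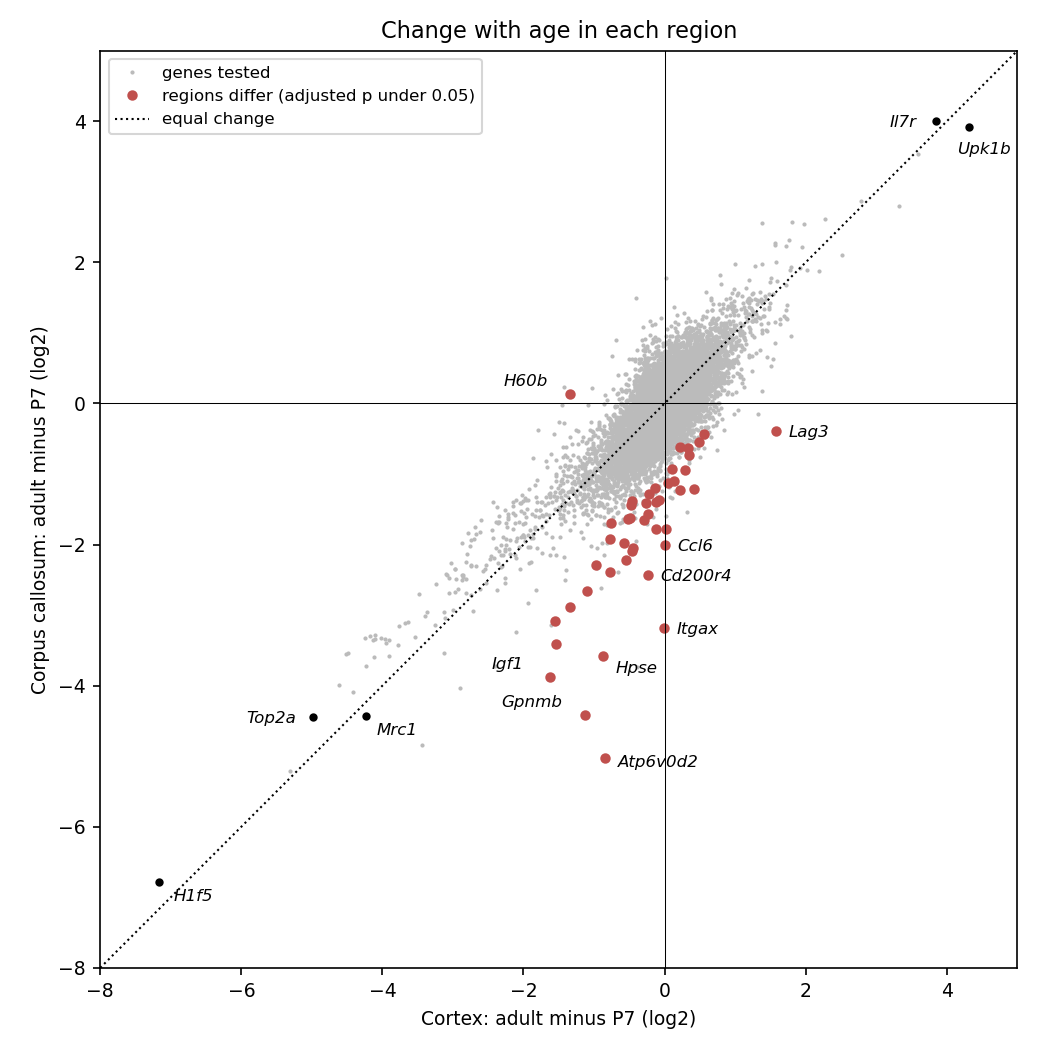
Change with age (adult minus P7, log2) in cortex (x axis) and corpus callosum (y axis) for all genes tested (grey), with the 45 genes whose changes differed between regions in red, some other genes in black and a dotted line of equal change. All but 1 of the red points, H60b, lie below the line, and Top2a, Il7r and Upk1b lie near it.

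Of the axon tract set, 9 of 26 were called in this test, against 0.198% of all genes with a difference below 0. Itgax fell by 3.18 in the callosum and differed by -0.01 in cortex (adjusted p = 0.989), a difference between regions of -3.17 (adjusted p = 0.00211, limma). Atp6v0d2 fell by 5.03 and differed by -0.85 in cortex (difference -4.19, adjusted p = 0.00933), and Gpnmb fell by 4.42 and 1.13 (difference -3.29, adjusted p = 0.00872). In cortex these genes were already low at P7. The cortical means of Itgax were 5.74 at P7 and 5.73 in the adult, near the adult callosal mean of 5.67. Those of Atp6v0d2 were 4.55 and 3.71, against 3.92 in the adult callosum. Those of Gpnmb were 6.81 and 5.68, against 5.63. Hpse fell by 3.59 and 0.88 (difference -2.71, adjusted p = 0.00059). For Igf1, which fell by 3.88 and 1.62, the difference was -2.26 (adjusted p = 0.0189, limma). Its adjusted p was 0.0588 with only the 12 P7 and adult arrays and 0.051 without callosal adult replicate 2. It was 0.0534 to 0.0741 without cortical P7 replicate 2 or 3 or adult replicate 2 or 3. Lpl went the other way in size, -3.30 in callosum and -4.17 in cortex, and its difference of 0.87 did not pass (adjusted p = 0.122).

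Other genes with a regional difference were the chemokines Ccl6 (-2.0 in callosum, 0.01 in cortex) and Ccl9 (-1.21 and 0.41), and the glycolytic Tpi1 (-2.05 and -0.44) and Pgk1 (-2.28 and -0.97). The glycolysis list had 8 genes lower in the callosum and 1 in cortex, with 4 members called in the test of the difference. Those calls were not stable: Tpi1 lost its call under 8 and Pgk1 under 9 of the 20 other fits. Lag3, an inhibitory receptor, rose in cortex by 1.58 and differed by -0.39 in the callosum (adjusted p = 0.279, limma). H60b, a ligand of the NKG2D receptor, was the 1 gene (0.00451% of those tested) on the opposite side. It fell in cortex by 1.34 and differed by 0.13 in the callosum, a difference of 1.47 (adjusted p = 0.0489, limma).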

How the data were processed

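The authors deposited log2 expression values normalized with RMA, per the submitters' processing notes (version, settings and annotation not given). Amplification used the Ovation PicoSL WTA kit, per the labels' protocols, so small amounts of RNA may add noise. Of 41345 probe sets, 23521 named 1 symbol, 1814 several and 16010 none in the platform annotation; 23328 matched RefSeq. Each of the 22180 genes used its brightest single-symbol probe set (1082 had several). One limma model (3.58.1, R 4.3.3) with a mean per group was fitted to all 18 arrays (12 residual degrees of freedom, no filter), tested on simulated data first, and p-values were adjusted over all genes. With 3 arrays a group, an exact permutation test cannot go below 0.1, so single-gene tests rest on limma. No detection calls were used, and arrays compress low levels. Named genes were the 15 largest called differences per direction without overlap, the 3 most changed called genes each way in every list, a set panel and the largest regional differences; some further list members are given by value. Members and lists were chosen with earlier results of these data known; 66 of 910 listed genes are in several lists.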

Additional observations from a re-analysis of the deposited data

Results flagged for a closer look

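The age changes of callosum and cortex differed by an interaction term of the limma fit for 45 genes at an adjusted p under 0.05, and the values below are the callosal minus the cortical change on the log2 scale. Of the axon tract set and its neighbours, the differences were -4.19 for Atp6v0d2, -3.29 for Gpnmb, -3.17 for Itgax, -2.71 for Hpse, -2.26 for Igf1, -2.19 for Cd200r4 and -1.86 for Apoc1. The chemokines Ccl6 and Ccl9 differed by -2.01 and -1.62, and the macrophage marker Folr2 by -1.56. The glycolytic enzymes Tpi1 and Pgk1 differed by -1.60 and -1.31, the transcription factor Egr2 by -1.44 and the sugar phosphate transporter Slc37a2 by -1.23. Lag3 differed by -1.97, with a rise in cortex, and H60b by 1.47, with a fall in cortex. Cd200r4 (adjusted p = 0.0497), H60b (0.0489), Egr2 (0.0478) and Folr2 (0.0459) lay just under the limma threshold, and each lost the call under 10 or more of the other fits run for it. Apoc1 also lost its call under 10 of its 20 other fits, Pgk1 under 9, Tpi1 under 8, Igf1 under 6 and Lag3 under 5.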

How the results depend on the processing

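The count of genes called in the callosum was 3381 to 4110 under the other settings and 2917 to 4094 with 1 array left out, against 3822; in cortex it was 2247 to 2618 and 1567 to 2307, against 2264. The count of genes whose change differed between regions, 45, was 24 with only the 12 P7 and adult arrays, 77 with a trended and robust variance prior, 85 after a filter on low values, 72 with age and number as a random block, and 12 to 47 with 1 array left out; fewer genes are tested after the filter, and otherwise the cause was not tested. Same-numbered arrays had correlated deviations of 0.101, 0.042 and 0.058 for callosal P7 and adult, 0.239, 0.128 and 0.049 for cortical P7 and adult, 0.131, 0.078 and 0.049 for callosum and cortex at P7, and 0.30, 0.062 and 0.245 for callosum and cortex in the adult. Differently numbered arrays had -0.077 to 0.032, -0.21 to 0.169, -0.107 to 0.048 and -0.313 to 0.198, in the same order. The numbers were not taken as pairing in the main fit, since not every same-numbered pair of any set passed 0.1. Whether they mark shared animals or batches was not tested. The number does go with sex genes: replicate 1 had Xist at 10.91 to 11.84 in all 4 P7 and adult groups, and replicates 2 and 3 at 4.07 to 5.12. With the replicate block 4038 genes were called in the callosum and 41 for the regional difference, and with sex genes as a covariate 4029 and 52. Of 151 named genes called in the callosum, 127 kept the call under every other fit run for them (15, or 14 for Ifi209), 24 lost it under 1 or more, and none changed sign. After the filter on low values the list median changed sign for chemokines and their receptors (-0.0203 against 0.18) and for secreted trophic factors (-0.19 against 0.07), since fewer members remain. The precision is limited by 3 arrays a group, and genes near background carry compressed differences.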

Other observations

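At P3 the callosum arrays, which carry another label prefix, so that age and array set cannot be told apart, held some of the changing genes at levels near those of P7 and others apart. Il7r was at 5.27, 4.94 and 4.25 at P3 and Csmd3 at 5.08, 4.94 and 4.86, against adult values above 8 for both. Rrm2 was at 9.61, 9.59 and 9.20, and Mki67 at 9.30, 9.10 and 9.56. Atp6v0d2 spread widely at P3, at 8.40, 7.72 and 5.87, and so did Clec7a, at 9.69, 8.78 and 7.87. Neurl3 was at 7.57, 8.75 and 8.64 at P3, 6.97, 6.99 and 6.87 at P7 and 9.38, 9.0 and 9.40 in the adult, so its P7 values were the lowest of the 3 ages. H1f1, a linker histone, was at 4.07, 4.37 and 5.27 at P3, 6.17, 7.11 and 7.62 at P7 and 3.35, 3.43 and 3.49 in the adult, the highest at P7. No test was made with the P3 arrays.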
